A study of Mus musculus with 16 samples.

Results

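The IL-12 and IL-18 receptor and STAT4 axis of CD8+ T cells was followed through 7 genes, picked by symbol from the 55450 genes of the count table. They were Il12rb1 and Il12rb2 (the 2 chains of the IL-12 receptor), Jak2 and Tyk2 (the kinases bound to those chains), Stat4 (the transcription factor they activate), and Il18r1 and Il18rap (the 2 chains of the IL-18 receptor). All 7 were among the 16640 genes that passed a filter on low counts. The genes were chosen with their Control gRNA and Tardbp gRNA values known, so their differences between the guides are a description and carry no test.

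RNA sequencing had been run on 16 libraries of sorted CD8+ T cells, 8 with Control gRNA and 8 with Tardbp gRNA. In both groups OT-I T cells, which carry a transgenic T cell receptor for the ovalbumin peptide SIINFEKL (strain label OT-1 Tg C57BL/6J, Rag-deficient in the study's methods), were electroporated with Cas9 and a guide RNA. The guide was a scrambled control or was directed at Tardbp, the gene of the RNA-binding protein TDP-43. C57BL/6J recipients of the cells were given the peptide and agonist antibodies to OX40 (CD134) and 4-1BB (CD137), all of which both groups received. Spleen and lymph nodes were taken 4 days later by the labels, and the methods give a shorter interval. The cells were not cloned, the share of edited cells was not measured here, and the ages of the mice are not in the labels. By the study's text, the sorted cells were stimulated before sequencing.

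IL-12 is made mainly by dendritic cells and macrophages. Its binding to the receptor activates TYK2 on the IL-12Rβ1 chain and JAK2 on the IL-12Rβ2 chain, and the phosphorylated IL-12Rβ2 tail recruits STAT4, which enters the nucleus and drives genes such as Ifng. IL-12Rβ1 is shared with the IL-23 receptor, whereas IL-12Rβ2 is induced on activated T cells and limits their response to IL-12. IL-18 acts through a separate receptor of the IL-1 family whose signal runs over MyD88, IRAK kinases and TRAF6, and together the 2 cytokines make CD8+ T cells secrete IFNγ without a T cell receptor signal.

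The sequences below show where Stat4 messages differed between the guides. Exon 2 of Stat4 (129 bases, chr1:52011783-52011911, plus strand, GRCm38) holds the start codon of the protein, its first base lying before the codon. The coding part of that exon, chr1:52011784-52011911, is printed with the start codon in capitals, followed by 3 junctions of 15 bases from each exon, with the downstream exon in capitals.

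Stat4 exon 2, coding part: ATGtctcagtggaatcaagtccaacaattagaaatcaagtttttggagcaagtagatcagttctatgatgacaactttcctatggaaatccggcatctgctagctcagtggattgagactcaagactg
Stat4 exon 1 to exon 2: gagagagagagccagCATGTCTCAGTGGAA
Stat4 exon 2 to exon 3: tgagactcaagactgGGAAGTAGCTTCTAA
Stat4 exon 1 to exon 3: gagagagagagccagGGAAGTAGCTTCTAA

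The sequences are those of the GENCODE M21 transcripts. The last of these junctions is that of the annotated transcript Stat4-203, which has 5 exons and is annotated as a retained-intron transcript with no coding sequence. In the main transcript, Stat4-201, which has 24 exons, the reading frame had 748 codons. With exon 2 taken out of that transcript, the first start codon in the same frame lay in exon 3, and 697 codons remained, 51 fewer. Upstream of it, 7 ATG triplets opened frames of at most 45 codons. These lengths were computed from the annotated sequence, and no protein was measured.

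The libraries held 56007954 to 94785382 counts in genes. Tardbp itself ran from 172 to 207 CPM (counts scaled to library size) in the Control gRNA libraries, with a median of 198. It ran from 110 to 147 CPM, with a median of 136, in the Tardbp gRNA libraries. The groups did not overlap, and Tardbp gRNA libraries kept 70.1% of the control mean. That is a level of RNA. By immunoblot, the study reports that cells given the Tardbp guide did not make the protein. The defining CD8 T cell genes (Cd8a, Cd8b1, Cd3d, Cd3e and Cd3g) summed to 2310 to 2925 CPM with Control gRNA and to 3607 to 4707 in Tardbp gRNA libraries, and all 5 were higher by edgeR's test. RNA concentration before library preparation did not overlap between the groups either, at 34.9 to 197.1 (no unit given) against 10.1 to 24.0. In the other marker lists 6 genes were called, all of them higher with Tardbp gRNA. They were 4 of 4 tested red cell precursor genes (all globin genes), 1 of 5 myeloid genes (Lyz2) and 1 of 3 dendritic cell genes (Zbtb46). None of the 4 tested B cell, 3 CD4 T cell and 2 NK cell genes was called. Of all genes tested, 46.8% were called. Summed levels in these lists were at most 41.8 CPM with Control gRNA and 185 with Tardbp gRNA, the latter for red cell precursor genes, and Pax5 was at no more than 2 counts in any library. The part of the marker genes in the results was not tested. With log2 RNA concentration as a covariate, Il12rb2, Il18rap and Stat4 kept their calls, at log2 fold changes of -2.37, -0.95 and -0.39, and Il12rb1, Il18r1 and Jak2 lost theirs. Since the concentrations of the groups did not overlap, that covariate and the guide cannot be fully told apart. The genes were chosen with the contrast between the guides known, so these calls are a description.

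Across all genes, 7784 of 16640 (46.8%) passed edgeR's quasi-likelihood test at a Benjamini-Hochberg adjusted p under 0.05. Of these, 3909 (23.5% of genes tested) were higher and 3875 (23.3%) lower with Tardbp gRNA, a split that became 4877 and 3077 with upper quartile scaling. Among the 7 genes of the axis, 6 passed, and 5 of those 6 were lower. The genes had been chosen with this contrast in view, and nothing is read from the count. Each p sets the difference between the guides against the spread between libraries of the same guide. In bulk RNA, fewer cells of a type and less RNA per cell cannot be told apart, which holds for each of the levels below.

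Il12rb2, the signalling chain of the IL-12 receptor that docks STAT4, fell the most of the 7 genes. In the 8 Control gRNA libraries its level was 37.4 CPM at the lowest, 59.7 at the median and 92.8 at the highest. In the 8 Tardbp gRNA libraries it was 7.44, 18.7 and 22.4 CPM. The groups did not overlap: the highest Tardbp gRNA library lay below the lowest Control gRNA library, and 16.9% of all genes tested had no overlap in one direction or the other. The means were 63.1 ± 21.5 and 16.2 ± 5.75 CPM (SD, n = 8 each), a log2 fold change of -1.96 (SE 0.25) or 3.90-fold less. Only 40 of the 16640 genes had a lower fold change. The spread was wide in both groups, with a coefficient of variation of 34.1% with Control gRNA and 35.5% in Tardbp gRNA libraries, against 7.71% and 3.93% for Stat4.

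Il12rb2 lies on the minus strand at chr6:67291318-67376188, and its 3' end overlaps that of Serbp1 on the plus strand. Of its 3794 annotated exon bases, 1519 (40.0%) are also exon bases of Serbp1. The libraries were made with a kit that does not mark strand, so reads from the shared stretch cannot be told apart. Serbp1 was at 771 ± 60.6 CPM with Control gRNA and 644 ± 24.6 CPM with Tardbp gRNA (log2 fold change -0.26, edgeR adjusted p = 9.31e-05), far above Il12rb2 in both groups. The share of Il12rb2 counts that came from Serbp1 was not measured.

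Il12rb1, the chain that binds IL-12 p40 and holds TYK2, changed far less. Its level was 30.0, 39.6 and 42.9 CPM (lowest, median and highest) with Control gRNA. In Tardbp gRNA libraries the same 3 values were 21.3, 32.9 and 37.7 CPM. The groups overlapped, with 2 of 8 Tardbp gRNA libraries below the lowest control. The log2 fold change was -0.29 (SE 0.11). Its call was the least stable of the 6: it was lost without Control gRNA replicate 2 (log2 fold change -0.27) and under several other settings given in the closing section.

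Because the 2 chains changed by different amounts, their ratio was taken within each library on the TPM scale, on which counts are divided by transcript length and each library is brought to the same sum. The ratio of Il12rb2 to Il12rb1 was 0.827 to 2.57 with Control gRNA, with a median of 1.42. In Tardbp gRNA it was 0.224 to 0.642, with a median of 0.50. The ranges did not overlap, and Il12rb2 was the scarcer chain in all 8 Tardbp gRNA libraries.

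The kinases did not follow the receptor. Jak2, the kinase bound to IL-12Rβ2, was at 19.0, 21.2 and 34.0 CPM with Control gRNA and at 24.8, 29.6 and 36.2 CPM in Tardbp gRNA libraries (lowest, median and highest). It was the 1 gene of the 7 that was called higher, by 0.39 on the log2 scale (SE 0.11). The groups overlapped because of Control gRNA replicate 2, which held the 34.0 CPM, whereas the next highest control was at 24.2 CPM. Tyk2, the kinase bound to IL-12Rβ1, was not called: its level was 94.4 to 129 CPM with Control gRNA and 83.4 to 120 CPM with Tardbp gRNA, a log2 fold change of -0.08 (SE 0.08).

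Stat4 was the most abundant of the 7 genes and the least variable. Control gRNA libraries ran from 357 to 447 CPM with a median of 395. Tardbp gRNA libraries ran from 268 to 304 CPM with a median of 294. The groups did not overlap. The means were 399 ± 30.8 and 292 ± 11.5 CPM (SD, n = 8 each), a log2 fold change of -0.45 (SE 0.04), so that 73.2% of the control level remained. Stat4 spans chr1:51987148-52107189 on the plus strand, and 1033 of its 3872 exon bases are shared with a noncoding transcript of the same strand, Gm28177, which was at 1.41 ± 1.83 CPM with Control gRNA and 0.546 ± 0.213 CPM with Tardbp gRNA.

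**Figure D1:**
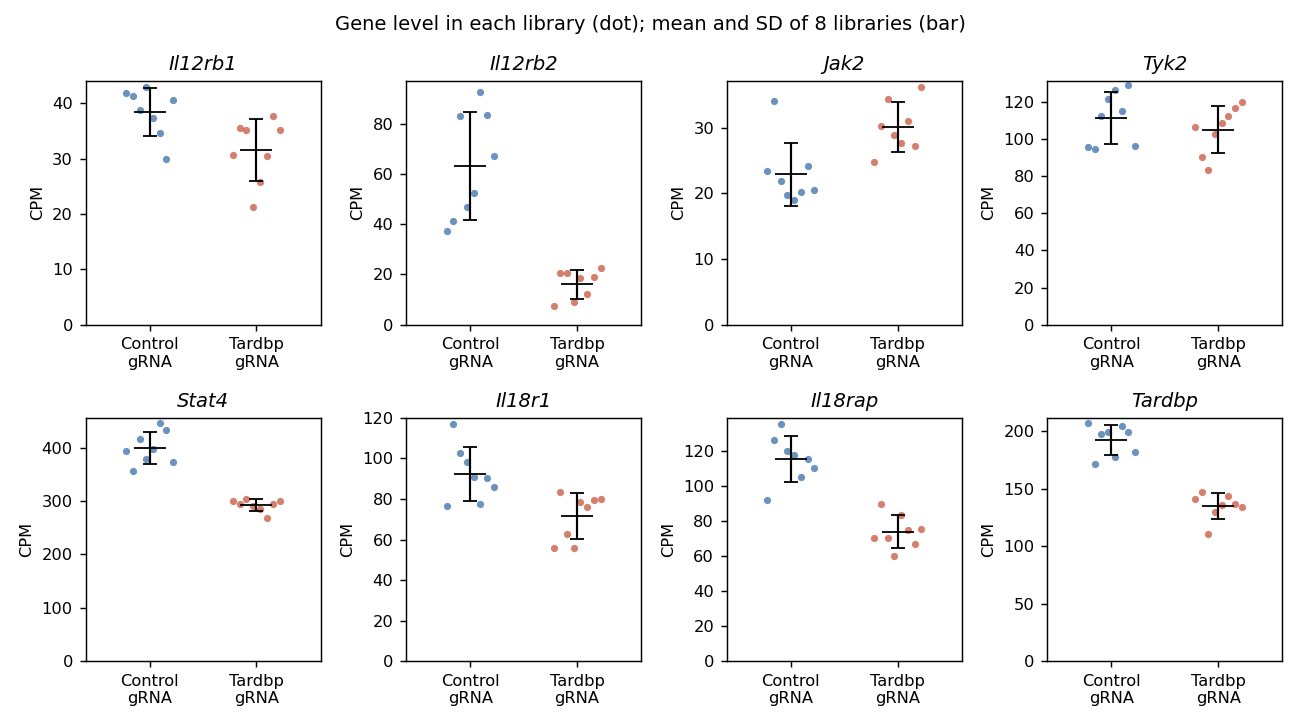
Level of each of the 7 genes and of Tardbp, in CPM on axes that start at 0, in the 8 Control gRNA and 8 Tardbp gRNA libraries (dots), with mean and SD (bars). Il12rb2, Stat4, Il18rap and Tardbp did not overlap between the guides, whereas Il12rb1, Jak2, Tyk2 and Il18r1 did.

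The 2 chains of the IL-18 receptor are neighbours on chromosome 1, with 14507 bases between the end of Il18r1 (chr1:40465552-40500854) and the start of Il18rap (chr1:40515362-40551705), both on the plus strand. Il18rap, the accessory chain needed for signalling, was at 92.1, 117 and 135 CPM (lowest, median and highest) with Control gRNA. In Tardbp gRNA libraries it was at 60.0, 72.8 and 90.0 CPM. The groups lay apart by a narrow margin, the highest Tardbp gRNA library being 90.0 CPM and the lowest Control gRNA library 92.1 CPM, and the log2 fold change was -0.64 (SE 0.08). Il18r1, the chain that binds IL-18, was at 76.4, 90.5 and 117 CPM with Control gRNA and at 55.8, 77.1 and 83.7 CPM with Tardbp gRNA. Here the groups overlapped, with 4 of 8 Tardbp gRNA libraries below the lowest control, and the log2 fold change was -0.37 (SE 0.10). The TPM ratio of Il18rap to Il18r1 was 0.790 to 0.934 with Control gRNA and 0.609 to 0.885 with Tardbp gRNA, with overlap.

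On the TPM scale, which allows levels of different genes to be set side by side, Stat4 stood above the other genes in both groups, at 224 ± 18.5 with Control gRNA and 160 ± 7.38 with Tardbp gRNA (SD, n = 8 each). In Control gRNA it was followed by Il18r1 (46.2 ± 7.02), Tyk2 (40.8 ± 5.39), Il18rap (40.0 ± 5.35), Il12rb2 (34.8 ± 12.2) and Il12rb1 (22.8 ± 2.40), neighbours whose ranges overlapped, and by Jak2 (7.62 ± 1.72), whose range lay below that of Il12rb1. In Tardbp gRNA the order was Tyk2 (37.9 ± 3.58), Il18r1 (34.2 ± 6.23), Il18rap (24.7 ± 3.45) and Il12rb1 (17.9 ± 3.28), again with overlapping neighbours. Jak2 (9.65 ± 1.19) and Il12rb2 (8.54 ± 3.08) came last. The range of Jak2 lay below that of Il12rb1 and overlapped that of Il12rb2. Il12rb2 was thus 5 of 7 in the order with Control gRNA and 7 of 7 with Tardbp gRNA.

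**Figure D2:**
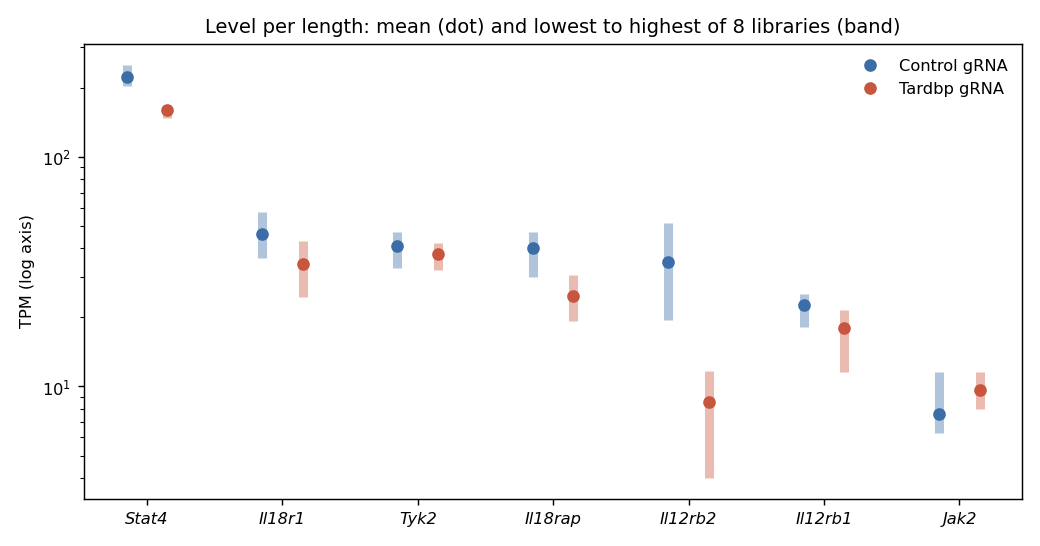
Level per transcript length (TPM, log axis) of the 7 genes: dots are means of 8 libraries and bands run from the lowest to the highest library. Il12rb2 was at 19.5 to 51.6 TPM with Control gRNA and at 3.98 to 11.7 TPM with Tardbp gRNA, where Jak2 was at 7.98 to 11.6 TPM.

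Messages of the 7 genes were then compared by isoform. Of 32 annotated transcripts, 21 passed the filter on low counts and 8 were called. Of all 40886 transcripts tested, 16.6% were called. The genes were chosen with this contrast known, and nothing is read from the count. The Psi table of the authors (percent spliced in, a fraction for each exon part or node) listed 138 nodes of the 7 genes. Psi differed by over 0.1 between the guides at 8 of them, in Il18r1 (5), Il12rb2 (2) and Stat4 (1). Of all 125520 nodes, 4.7% did. Over 0.2 the counts were 2 of the 138 nodes and 1.67% of all, and over 0.05 they were 16 nodes and 9.65% of all. Psi is given as 1 value per group with unknown depth, so it has no replicate check. A second measure with a value per library was therefore rebuilt from the transcript counts, as the share of length-scaled counts that include the node among annotated transcripts that span it. For the 7 genes it is also a description, since it comes from the same libraries.

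In Stat4, the node that changed was exon 2, the start codon exon printed above. Its Psi was 0.850 with Control gRNA and 0.710 with Tardbp gRNA. Among all core exon nodes in the table, 0.932% differed by over 0.1. The other 21 core exons of Stat4 had Psi of at least 0.957 in both groups and differed by at most 0.0108. This exon was one of the values for which Stat4 was picked.

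The rebuilt inclusion of exon 2 was 0.972 to 0.984 with Control gRNA, with a median of 0.983. In Tardbp gRNA it was 0.937 to 0.969, with a median of 0.953. The ranges did not overlap, which was so for 0.329% of 21874 rebuilt nodes. The difference was -0.0279 (SE 0.0042), smaller than that of Psi and under the 0.1 set as a call (0.151% of rebuilt nodes were called). Both measures were lower with Tardbp gRNA. They come from the same libraries, and Stat4 was picked with its Psi known, so the shared direction is a description and no check. With counts not divided by length the difference was -0.0101. The transcript without exon 2 behind this measure was Stat4-203, a retained-intron transcript of 1024 bases. Skipping of exon 2 and reads from that intron cannot be told apart in the rebuilt values.

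The transcript without exon 2, Stat4-203, was at 2.13 to 3.71 CPM with Control gRNA and at 3.23 to 6.61 CPM with Tardbp gRNA. It was called higher, by 0.80 on the log2 scale (SE 0.17), while the full-length Stat4-201 went from 397 ± 36.1 to 279 ± 14.7 CPM, a log2 fold change of -0.51 (SE 0.05). Stat4-203 took 0.553% to 0.980% of Stat4 counts with Control gRNA and 1.07% to 2.27% with Tardbp gRNA, without overlap. Stat4-202, with other first exons, was not called (-0.47, SE 0.77). At the 3' end of Stat4, a pair of end nodes that differ by 5 bases had Psi differences just inside the limit, at -0.0975 and 0.0971.

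**Figure D3:**
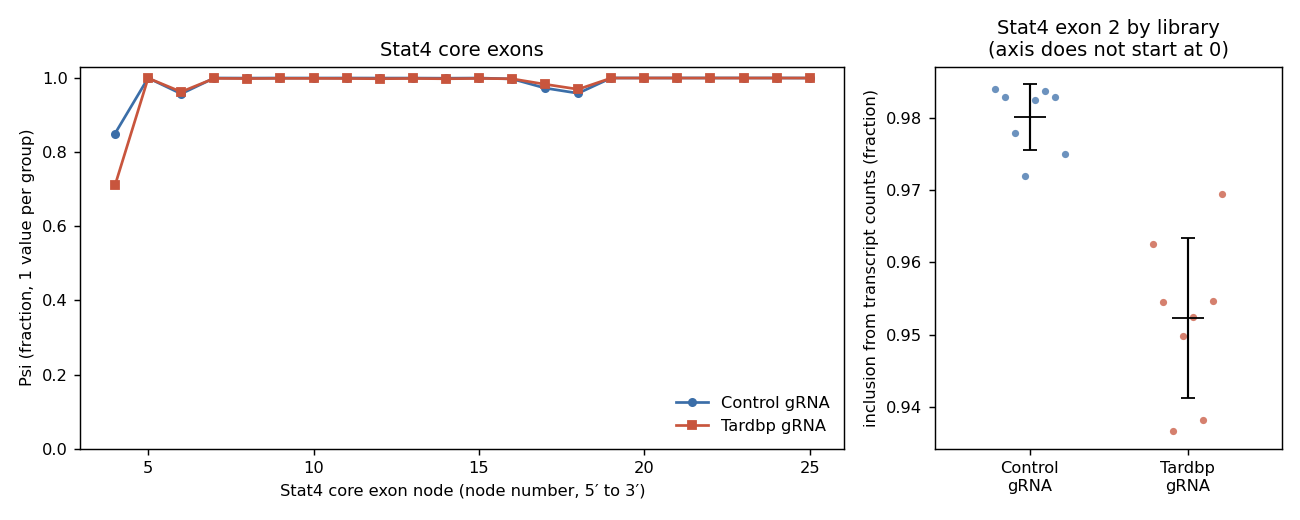
Left, Psi of the 22 core exon nodes of Stat4 from the 5' to the 3' end, 1 value per group; node 4 is exon 2, at 0.850 with Control gRNA and 0.710 with Tardbp gRNA. Right, inclusion of exon 2 rebuilt from transcript counts in each library (dots) with mean and SD (bars), on an axis that does not start at 0; the lowest Control gRNA library (0.972) lay above the highest Tardbp gRNA library (0.969).

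In Il12rb2, the 2 nodes past 0.1 form its 3' end. The end proximal to the coding sequence (node 17, chr6:67292018-67292736) had a Psi of 0.192 with Control gRNA and 0.0429 with Tardbp gRNA. The distal stretch (node 18, chr6:67291318-67292017) was at 0.808 and 0.957. Both nodes lie wholly within the stretch shared with Serbp1. Of the annotated transcripts, Il12rb2-201, which codes for 874 residues, held nearly all counts of the gene in both groups (98.7% ± 1.07 and 99.2% ± 0.673, SD, n = 8 each). It had a log2 fold change of -2.0 (SE 0.26). Il12rb2-202, which has 10 exons in place of 16 and 540 codons, was at 0.882 ± 0.715 and 0.123 ± 0.133 CPM and was called lower (-2.82, SE 0.70). At 3 core exons of Il12rb2 (nodes 3, 5 and 6) Psi was 0.948, 0.954 and 0.964 with Control gRNA and 0.887, 0.887 and 0.908 with Tardbp gRNA.

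Il18r1 held the most nodes past 0.1. They lay in the first exons (nodes 4 and 5, alternative starts, and node 7, an alternative donor) and at an internal 3' end (nodes 16 and 17). Nodes 4 and 5 moved by nearly equal and opposite amounts, as did nodes 16 and 17, so the nodes of a pair are not separate events. None was a core exon. Over 0.1 lay 4.7% of all nodes and 0.932% of core exon nodes, so nodes of other types passed more often, and nothing is read from the count. Psi of node 4 was 0.559 with Control gRNA and 0.208 with Tardbp gRNA, that of node 5 0.440 and 0.793, and that of node 7 0.344 and 0.530. Rebuilt inclusion takes in every annotated transcript that spans a node, also those with other starts or ends. At start and end nodes it is therefore not the same quantity as Psi and is no check on it. For node 4 it was 0.124 ± 0.0428 and 0.114 ± 0.0603, and for node 5 0.678 ± 0.0382 and 0.672 ± 0.0734 (SD, n = 8 each). For node 7 it went the same way as Psi, from 0.801 ± 0.0672 to 0.885 ± 0.0531, with overlapping ranges. Node 3, an alternative donor with Psi values of 0.372 and 0.310, had the widest difference among the rebuilt nodes of the 7 genes, from 0.473 ± 0.163 to 0.240 ± 0.111 (-0.233, SE 0.0688), in the same direction and also with overlap.

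The internal 3' end belongs to short forms of the IL-18 receptor chain. Full-length Il18r1-202 has 537 codons, and its C-terminal part carries the TIR domain through which receptors of the IL-1 family bind MyD88. In Il18r1-203 and Il18r1-204 the exon that starts at position 40491058 runs past the splice donor at 40491216, and a stop codon follows 14 bases later, after 372 codons. The end of that short frame, chr1:40491204-40491233 with the stop codon in capitals, is set beside the spliced form, with the next exon in capitals.

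Il18r1-203 end of the reading frame: gagacactaacaggtaatatgctgctgTGA
Il18r1-202 over the same exon edge: acgagacactaacagATGGTAAAACATATG

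The 2 short forms of 372 codons did not move together. Il18r1-204 was at 4.06 to 12.6 CPM with Control gRNA and at 1.53 to 4.73 CPM with Tardbp gRNA, and was called lower (-1.47, SE 0.27). Il18r1-203 was at 5.32 to 14.2 and 4.94 to 16.6 CPM and was not called (0.20, SE 0.30). Il18r1-205, shorter still at 267 codons, was lower but not called (-0.60, SE 0.29). Full-length Il18r1-202 was called lower, at 75 ± 10.9 and 55.8 ± 8.74 CPM (-0.43, SE 0.11), and kept its share of the gene's counts, 79.8% ± 2.39 with Control gRNA and 79.1% ± 5.16 with Tardbp gRNA (SD, n = 8 each). Psi of nodes 16 and 17, which differ by 2 bases in where the short form ends, went from 0.623 to 0.499 and from 0.377 to 0.501. The rebuilt inclusion is not the same quantity at these end nodes. For node 17 it went the other way from Psi, from 0.193 ± 0.0654 to 0.105 ± 0.0444, with overlapping ranges. For node 16 it was 0.367 ± 0.0356 and 0.369 ± 0.0749. Why the 2 measures of node 17 differed in direction was not tested.

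Il12rb1 has an annotated form without exon 14 (97 bases, chr8:70819325-70819421), a length that shifts the frame. An isoform of IL-12Rβ1 that lacks the membrane-spanning segment has been described in mouse. The exon is printed because Il12rb1-201, with a reading frame of 738 codons, holds it and Il12rb1-205, with 668 codons, lacks it.

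Il12rb1 exon 14: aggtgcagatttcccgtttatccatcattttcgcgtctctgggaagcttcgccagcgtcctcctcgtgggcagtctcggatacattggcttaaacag

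Its Psi was 0.717 with Control gRNA and 0.796 with Tardbp gRNA, under 0.1. The rebuilt inclusion was 0.660 ± 0.107 and 0.712 ± 0.0978 (SD, n = 8 each), with overlap. Il12rb1-205 took 20.5% to 46.5% of the gene's counts with Control gRNA and 9.39% to 38.0% with Tardbp gRNA, and neither Il12rb1-205 (-0.59, SE 0.27) nor Il12rb1-201 (-0.22, SE 0.15) was called.

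The remaining transcripts added 2 calls. Il18rap-201, the 13-exon coding transcript that held at least 98.8% of Il18rap counts in each library, went from 116 ± 10.8 to 72.4 ± 8.82 CPM (-0.69, SE 0.08). Tyk2-204, a 2-exon retained-intron transcript, was at 1.12 ± 0.422 and 2.15 ± 0.610 CPM and was called higher (0.94, SE 0.24). The main coding transcripts Tyk2-203 (-0.30, SE 0.30) and Jak2-202 (0.17, SE 0.27) were not called, nor were Jak2-204 (0.91, SE 0.90), Tyk2-202 (0.56, SE 1.25), Tyk2-205 (0.02, SE 0.16), Il18rap-202 (0.07, SE 0.56), Il18rap-203 (-0.42, SE 0.31) and Il12rb1-202 (-0.63, SE 0.47). No transcript of the 7 genes differed by over 10 percentage points in its share of counts with an adjusted p under 0.05, as 0.63% of 32699 transcripts did.

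**Figure D4:**
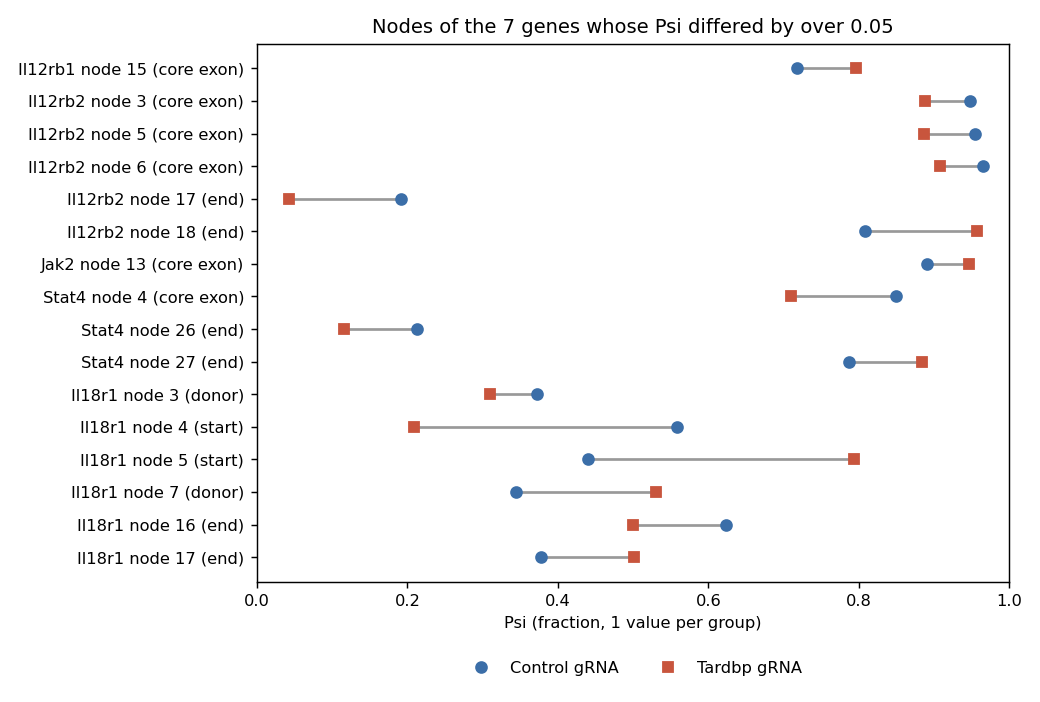
Psi (fraction, 1 value per group) at the 16 nodes of the 7 genes that differed by over 0.05, with circles for Control gRNA and squares for Tardbp gRNA. The widest gaps were at the alternative starts of Il18r1 (nodes 4 and 5), and exon 2 of Stat4 (node 4) went from 0.850 to 0.710.

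Other genes of the pathway were described by 6 lists of 82 genes, 75 of them tested. Of these, 19 were higher and 19 lower by edgeR's test (50.7%, near the 46.8% of all genes). The lists were drawn up with earlier results of these data known. The median log2 fold change of all genes tested was 0.05.

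Among related receptors of the IL-12 and IL-1 families, 4 of 10 tested genes fell, 2 rose and 4 did not pass, with a median of -0.66. Il23r, which pairs with IL-12Rβ1 to bind IL-23, was low and fell from 5.59 ± 3.19 to 1.15 ± 0.560 CPM (SD, n = 8 each; adjusted p = 0.000383). Il1rl1, the IL-33 receptor ST2, fell from 43.5 ± 6.94 to 17.0 ± 5.54 CPM without overlap (log2 fold change -1.36, SE 0.17, adjusted p = 4.05e-06). Il1rl2, the IL-36 receptor, fell by 1.15 on the log2 scale (SE 0.13, adjusted p = 1.77e-06), and Il1r2, the IL-1 decoy receptor, by 1.57 (SE 0.33, adjusted p = 0.000721). The genes that rose were Il6st, the gp130 chain shared by IL-6, IL-27 and other receptors (0.64, SE 0.10, adjusted p = 4.56e-05), and Il6ra (0.77, SE 0.27, adjusted p = 0.0254). The call of Il6ra was lost without any one of Control gRNA replicates 6 and 8 (0.62 and 0.71) and Tardbp gRNA replicates 6 and 8 (0.72 and 0.69). Over library numbers 1 to 3 alone 3 of the 10 were called, 1 higher and 2 lower.

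Of 7 other Janus kinase and STAT genes, 5 fell and none rose, with a median of -0.28. Stat5b, used by IL-2 family cytokines, fell the most, from 152 ± 15.8 to 92.8 ± 10.9 CPM without overlap (-0.72, SE 0.08, adjusted p = 5.62e-07). Stat5a (-0.44, SE 0.08, adjusted p = 0.000130) and Stat6 (-0.42, SE 0.05, adjusted p = 4.17e-06) fell about as far as Stat4. Jak3 (-0.28, SE 0.08, adjusted p = 0.00642) and Stat3 (-0.16, SE 0.05, adjusted p = 0.0124) fell less, and Stat2 and Jak1 did not pass. With log2 RNA concentration as a covariate 2 of the 7 were called, and over library numbers 1 to 3 alone 3 were, each of them lower.

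In the relay downstream of the IL-18 receptor, 3 of 13 tested genes fell, 2 rose and 8 did not pass, with a median of 0.05. Traf6 (-0.48, SE 0.09, adjusted p = 0.000331), Irak4 (-0.42, SE 0.06, adjusted p = 3.75e-05) and Tollip (-0.35, SE 0.07, adjusted p = 0.000348) fell. Peli1, a ubiquitin ligase that acts on IRAK proteins, rose by 0.71 (SE 0.14, adjusted p = 0.000392) and Tab2, an adaptor of the kinase TAK1, by 0.25 (SE 0.07, adjusted p = 0.00938). Over library numbers 1 to 3 alone edgeR called none of the 13 (5 at an unadjusted p under 0.05), and with log2 RNA concentration as a covariate it called 3. DESeq2 called 5 in all libraries. Myd88, the adaptor at the head of the relay, was at 163 ± 6.97 and 158 ± 7.34 CPM and did not pass (adjusted p = 0.291).

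Inhibitors of JAK-STAT signalling numbered 20, of which 6 rose, 1 fell and 13 did not pass, with a median of -0.02. With log2 RNA concentration as a covariate edgeR called 0 of the 20 (4 at an unadjusted p under 0.05), and over library numbers 1 to 3 alone also 0 (3 at an unadjusted p under 0.05), whereas DESeq2 called 8 in all libraries. The highest fold changes were those of Socs5 (0.85, SE 0.23, adjusted p = 0.00482), Socs1 (0.54, SE 0.21, adjusted p = 0.0432) and Sh2b3, the adaptor LNK (0.51, SE 0.15, adjusted p = 0.00740). Pdlim2, a ubiquitin ligase that degrades STAT4, rose by 0.30 (SE 0.06, adjusted p = 0.000580). Ptpn1, a phosphatase of JAK2 and TYK2, rose by 0.11 (SE 0.03, adjusted p = 0.00887), and Socs6 fell by 0.45 (SE 0.08, adjusted p = 9.91e-05). The call of Socs1 was lost in 13 of the 16 fits that left out 1 library (log2 fold change 0.42 to 0.63 over the 16). That of Ptpn1 was lost without Control gRNA replicate 8 and without Tardbp gRNA replicates 1, 4 and 6 (0.07 to 0.08).

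The type 1 effector list, genes that IL-12 and STAT4 are known to act on in T cells, moved in both directions: 9 of 20 rose, 5 fell and 6 did not pass, with a median of 0.32. Ifng, the cytokine gene at the end of both receptor pathways, rose from 8.68 ± 2.30 to 21.4 ± 4.29 CPM without overlap (1.30, SE 0.16, adjusted p = 2.44e-06). Tnf rose from 13.4 ± 0.980 to 24.9 ± 4.60 CPM, also without overlap (0.90, SE 0.10, adjusted p = 9.63e-07), and Eomes by 1.06 (SE 0.35, adjusted p = 0.0191). All of these are RNA levels. At the protein level, the study reports less secreted IFNγ and TNFα from Tardbp knockout cells after restimulation. Prdm1, the gene of the effector factor BLIMP1, fell by 1.0 (SE 0.22, adjusted p = 0.000935), Il2ra, the IL-2 receptor α chain, by 0.97 (SE 0.14, adjusted p = 1.19e-05), and Furin by 0.72 (SE 0.14, adjusted p = 0.000448). The call of Eomes was lost without Tardbp gRNA replicate 1 (0.85). With log2 RNA concentration as a covariate 9 of the 20 were called (7 higher, 2 lower), and over library numbers 1 to 3 alone 4 of 19 (3 higher, 1 lower).

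Most ligands were at few or no counts in these sorted cells. Il12a, Il12b, Il23a, Il27 and Il33 did not pass the filter, with at most 20 counts of each in any library and none of Il27. Il18 was at 5.67 ± 1.47 and 6.23 ± 0.671 CPM and did not pass the test (adjusted p = 0.458). Ebi3, the shared subunit of IL-27 and IL-35, fell from 4.19 ± 2.2 to 1.61 ± 0.561 CPM (-1.39, SE 0.33, adjusted p = 0.00210) and was the 1 of 5 tested genes of the list that passed, though over library numbers 1 to 3 alone edgeR called none of the 5 (1 at an unadjusted p under 0.05).

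**Figure D5:**
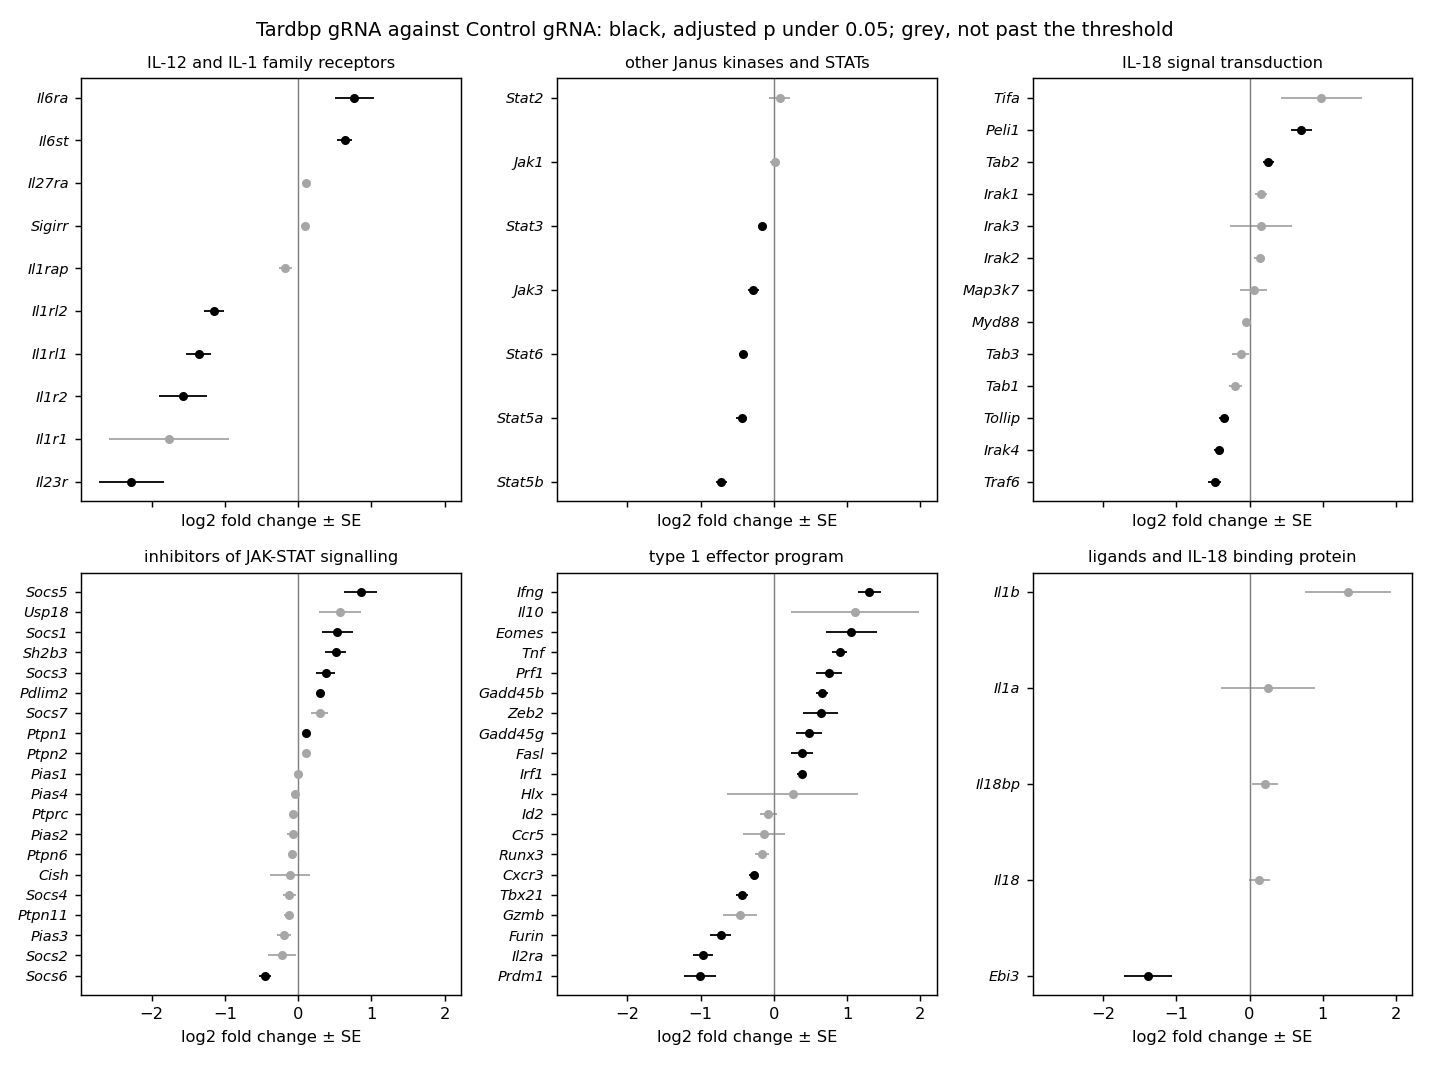
Log2 fold change of Tardbp gRNA against Control gRNA with its SE for the 75 tested genes of 6 pathway lists, black where edgeR's adjusted p was under 0.05 and grey otherwise. Of the other Janus kinases and STATs 5 of 7 were called, all lower. Of the inhibitors 7 of 20 were called, 6 of them higher, and 0 of 20 with log2 RNA concentration as a covariate. Of all genes tested, 46.8% were called.

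A letter M or F is given for each library (3 M and 5 F with Control gRNA, 5 M and 3 F with Tardbp gRNA), a contrast that the choice of the 7 genes did not use. It does not give the sex of all cells of a library: Xist ran from 9.82 to 69.0 CPM and the Y-linked Ddx3y from 18.3 to 39.0 CPM over the 16 libraries. With guide in the model, no gene passed edgeR's test of the letter, 660 (3.97%) had an unadjusted p under 0.05, and DESeq2 called 34 (0.117%). Il12rb2 was lower in M libraries by 0.61 on the log2 scale (SE 0.21), with an unadjusted p of 0.0102 and an adjusted p of 0.997. In Control gRNA, Il12rb2 was at 37.4, 46.8 and 52.4 CPM in the 3 M libraries and at 41.2 to 92.8 CPM in the 5 F libraries. In Tardbp gRNA, the 5 M libraries ran from 7.44 to 20.6 CPM and the 3 F libraries from 18.5 to 22.4 CPM. Over library numbers 4 to 8 alone, the difference was -0.81 (SE 0.11), with an unadjusted p of 1.44e-05 and an adjusted p of 0.105. In the fit over all 16 libraries, the other 6 genes had unadjusted p-values of at least 0.101 by edgeR. None of the 7 genes passed edgeR's test of an interaction of letter and guide (adjusted p = 0.999838 for each), and 662 genes (3.98%) had an unadjusted interaction p under 0.05. For Il12rb2 the interaction had an SE of 0.43 on the log2 scale, so a difference of that size could go unseen.

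The spread of Il12rb2 within a group was compared with that of the other 6 genes, over 8 libraries of each group and 12 relations in all. None passed after adjustment (smallest adjusted p = 0.147, exact permutation test, two-sided), and 3 had an unadjusted p under 0.05. In Control gRNA these were Stat4 (Pearson r = 0.77, exact p = 0.0313; Spearman rho = 0.76, exact p = 0.0368) and Il12rb1 (r = -0.71, exact p = 0.0367; rho = -0.83, exact p = 0.0154). Without the 2 libraries farthest from the Il12rb2 median r was 0.82 and -0.65. In Tardbp gRNA, Il18r1 had r = 0.76 (exact p = 0.0239; rho = 0.69, exact p = 0.0694), which rested on 2 libraries: without them r was 0.00396. Leaving out the same 2 libraries moved the relation with Stat4 in Tardbp gRNA the other way, from r = 0.19 (exact p = 0.677; rho = 0.38, exact p = 0.36) to 0.94. Libraries numbered 1 to 3 and those numbered 4 to 8 lay apart on the second principal component (9.10 to 48.8 against -31.2 to 1.42), and both hold too few libraries of a guide for a value within them.

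Genes whose log2 CPM was most like that of Il12rb2 were ranked, among 8965 others, by the smaller of Pearson's r over the 8 Control gRNA and over the 8 Tardbp gRNA libraries. They were Mlkl (0.83), Tcf25 (0.82), Adam8 (0.79), Emb (0.78) and Pcf11 (0.76). For Stat4 they included Pfkl (0.84), Ptcd2 (0.80), Eno1 (0.78) and Gm4735 (0.76), of which Pfkl and Eno1 are glycolytic enzymes. These are the highest of 8965 values over shared libraries and are given as a description.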

How the data were processed

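Processed files were used as deposited. The authors aligned reads to mm10 with HISAT2 2.1.0, sorted them with SAMtools 1.9 and made the deposited expected counts per gene and transcript with StringTie 2.1.0, per the labels' processing notes. Of the lines of the gene table, 55450 matched GENCODE M21 and 26431 others, with at most 0.144% of counts in a library, were left out. The library kit was SMART-Seq v4 with Nextera XT. The authors computed Psi, deposited as a fraction per group, with Whippet (version not given in the sources used here), and the study's text gives group A as Control. The deposited Psi table also holds the authors' own difference and probability columns, which were not used. Per the file headers, a sequencing sheet gave read pair counts, RNA concentration and fragment size, and a sample sheet gave a letter M or F. Of the columns in each count file, 10 matched no sample and were not used.

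Counts are whole numbers as deposited. They were filtered with filterByExpr, scaled by TMM and tested with edgeR 4.0.16 (glmQLFit, glmQLFTest, R 4.3.3). Shares and rebuilt inclusion (nodes with a mean transcript count above 50) were fitted with limma 3.58.1, and DESeq2 1.42.0 was an alternative. Each p was adjusted by Benjamini-Hochberg over all features tested. CPM is TMM-scaled, marker sums are CPM without TMM, and TPM was computed from transcript counts divided by length. Exact permutation tests enumerated all orders of 8 libraries. All model steps were tested on simulated data.

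Groups came from the sample titles. Within a group all 56 pairs of libraries differed by more than counting noise. By the study's text the cells were purified from individual recipient mice. The labels do not tie libraries to mice, so p-values rest on the spread between libraries.

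The 7 genes, the lists and the tests were chosen with earlier results of these data known. Named genes were the 7, Tardbp, all called genes of a list if 6 or fewer, otherwise its 3 highest and 3 lowest fold changes among called genes, the 5 genes most like Il12rb2 and Stat4 (mean log2 CPM of at least 3), each tested transcript, and each node with a Psi difference over 0.1. Genes outside this rule were named after their values were seen: Myd88, Il18, Serbp1, Gm28177, Stat2, Jak1, the filtered ligands, cell markers, Xist and Ddx3y, and the nodes with differences of 0.05 to 0.1. Values for a small number of genes are not reported here.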

Additional observations from a re-analysis of the deposited data

Results flagged for a closer look

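In 10 of 68 groups of 8 libraries that were checked, the highest or the lowest library stood apart from the rest by more than Dixon's 95% critical value (0.526). For independent, normally distributed groups chance would give about 1 in 20, or 3.4 of 68. These groups hold genes beside their own transcripts in the same libraries, so nothing is read from the count. In Control gRNA replicate 2, Jak2 was at 34.0 CPM (next 24.2), its transcript Jak2-202 at 31.9 CPM (next 24.7) and Il18r1-202 at 97.5 CPM (next 78.8). In Control gRNA replicate 5, Tyk2-202, a retained-intron transcript, was at 13.1 CPM (next 1.48). The same transcript was at 22.4 CPM in Tardbp gRNA replicate 5 (next 0.537), where Jak2-202 was at 4.71 CPM (next lowest 20.6). In Tardbp gRNA replicate 3, Tardbp was at 110 CPM, the lowest of its group (next 130), Il18r1-205 at 3.08 CPM (next 1.44) and Tyk2-204 at 3.46 CPM (next 2.48). In that library Il18r1-204 took 7.89% of Il18r1 counts (next 4.57%).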

How the results depend on the processing

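Il12rb2, Stat4 and Il18rap kept their direction and their call under every alternative tried. The 7 genes were chosen with this contrast known, so their calls describe the settings and are not a test. Adding log2 RNA concentration to the model left 2698 genes called (1011 higher, 1687 lower), Il12rb1 (-0.33), Jak2 (0.62) and Il18r1 (-0.59) lost their calls, Tyk2, not called, changed sign (0.0476), and 19 pathway genes were called (0 of the inhibitors). Library numbers 1 to 3 alone gave 1697 genes (556 higher, 1141 lower), 10 pathway genes, and no call for Il12rb1 (-0.30), Jak2 (0.14) and Il18r1 (-0.58); fewer libraries enter that fit. Il12rb1 also lost its call over numbers 4 to 8 alone (-0.30), with upper quartile normalization (-0.22) and at an adjusted p under 0.01 (-0.29). The cause of these changes was not tested. Psi differed by over 0.2 at 2 nodes of the 7 genes and by over 0.05 at 16. DESeq2 called 34 genes for the letter.

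With the replicate number as a block 7641 genes were called and Il12rb1 lost its call (-0.30); the other 6 genes kept their side of the threshold. Same-numbered libraries correlated by -0.00366 to 0.159 in their deviations from the group means, over 0.1 for 2 of 8 numbers. For 2 of 8 numbers the best correlation was with the same number. Low and high library numbers lay apart on a principal component, as given above, so libraries of the same number can share more than the number. These correlations do not settle whether same-numbered libraries were paired.

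Leaving out 1 library at a time gave 7248 to 7734 genes and 34 to 38 pathway genes. Log2 fold changes ran from -0.35 to -0.25 for Il12rb1, -2.06 to -1.88 for Il12rb2, -0.49 to -0.43 for Stat4, 0.34 to 0.50 for Jak2, -0.14 to -0.04 for Tyk2, -0.43 to -0.31 for Il18r1 and -0.69 to -0.60 for Il18rap. Inclusion of Stat4 exon 2 differed by -0.0304 to -0.0257. Psi has 1 value per group, and its depth is unknown.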
